A study of Mus musculus with 2 samples.

Results

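Intrinsic, or mitochondrial, apoptosis was described here through 9 genes taken by their symbols from the 55536 genes of the gene tables. They comprised the pore-forming effectors Bax and Bak1, the anti-apoptotic genes Bcl2, Bcl2l1 and Mcl1, the BH3-only genes Bcl2l11 and Bbc3, and the apoptosome genes Apaf1 and Casp9. All 9 were found, each under 1 gene identifier, and all 9 reached a TPM of 1 in both libraries (TPM, a level per transcript length on a scale that sums to the same total in each library), against 58.9% of nuclear protein-coding genes. The files identify them as Bax (ENSMUSG00000003873.11), Bak1 (ENSMUSG00000057789.14), Bcl2 (ENSMUSG00000057329.7), Bcl2l1 (ENSMUSG00000007659.18), Mcl1 (ENSMUSG00000038612.16), Bcl2l11 (ENSMUSG00000027381.16), Bbc3 (ENSMUSG00000002083.13), Apaf1 (ENSMUSG00000019979.12) and Casp9 (ENSMUSG00000028914.13). Their levels spanned 57.7 TPM for Bcl2l1, the highest, to 4.55 TPM for Bcl2l11, the lowest.

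In the mitochondrial pathway, BH3-only proteins sense damage or loss of trophic support and act on the anti-apoptotic proteins, which hold Bax and Bak in check. Once active, Bax and Bak open the outer mitochondrial membrane and cytochrome c leaves, binds Apaf-1 and forms with it the apoptosome, the platform on which caspase-9 is activated. In the brain this pathway is known for removing surplus neurons during development, and for becoming harder to trigger as neurons mature.

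Total RNA of the left cerebral cortex was sequenced from male B6CASTF1/J mice aged 14 days, first-generation offspring of the strains C57BL/6 and CAST. The tissue was untreated as far as the labels say, and both libraries, called replicates 1 and 2, were made from 300 ng of RNA and belong to 1 group. The labels number them as biological replicates, but name 1 donor entry for both and mention 3 males without saying whether tissue was pooled, so the spread between the libraries may be technical. With 1 group no conditions could be compared, and the smallest two-sided p that an exact sign-flip test could reach with 2 libraries is 0.5, so values are given without p-values, as mean ± SD over the 2 libraries (n = 2) or for each library.

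The libraries held 28377847 expected counts (replicate 1) and 30982776 (replicate 2), the reads that the quantifier estimated for each gene. All 8 of 8 markers of cortical excitatory neurons reached a TPM of 1 in both libraries. The 11 of 11 markers of striatal projection neurons were lower in replicate 2, with a summed level of 198 TPM there and 650 TPM in replicate 1, and a median log2 difference of -1.90. The 6 of 6 markers of myelinating oligodendrocytes were lower as well, with sums of 701 TPM in replicate 2 and 1070 TPM in replicate 1, while the 6 of 6 markers of red blood cells and the 8 of 8 of cortical excitatory neurons were higher in replicate 2 (sums of 1266 and 815 TPM, and of 1981 and 1661 TPM, in replicates 2 and 1). The sums for astrocytes (1622 and 1575 TPM), microglia (134 and 137 TPM) and endothelial cells (124 and 128 TPM) lay close together in replicates 2 and 1, and 3 of 6 markers of proliferating cells reached a TPM of 1 (sums of 6.16 and 6.81 TPM). In whole tissue, fewer cells of a type and less RNA per cell cannot be told apart.

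**Figure D1:**
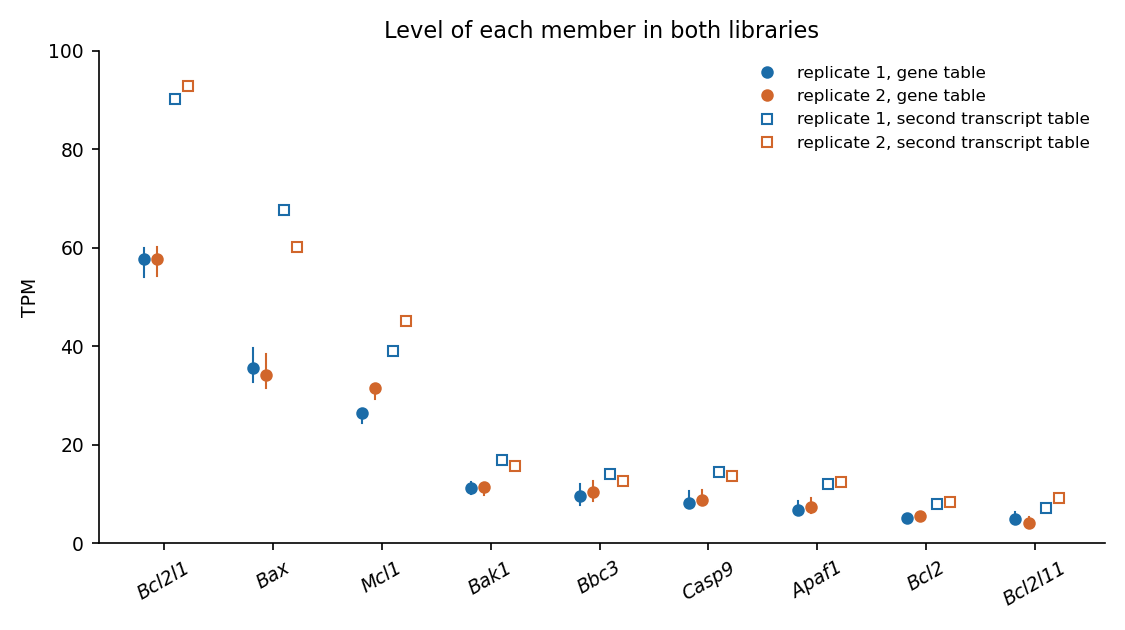
Level in TPM (vertical axis) of the 9 genes, ordered by their mean in the gene table. Filled circles are the gene table with the quantifier's own interval as a line, open squares the second transcript table summed per gene, and colours the libraries. Bcl2l1 stands highest in both quantifications, at 57.7 and 57.8 TPM in the gene table, and Bcl2l11 lowest in the gene table, at 4.87 and 4.22 TPM.

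Each library had been quantified in 2 ways. The gene table and the first transcript table came from transcriptome alignments, and the second transcript table came directly from the reads. In the gene table the order was Bcl2l1, Bax, Mcl1, Bak1, Bbc3, Casp9, Apaf1, Bcl2 and Bcl2l11, and the ranges of the 2 libraries did not overlap between any neighbours. The quantifier's own intervals, however, overlapped for Bax and Mcl1 in replicate 2. In both libraries they overlapped for Bak1 and Bbc3, Bbc3 and Casp9, Casp9 and Apaf1, and Bcl2 and Bcl2l11. In the second table the values were 1.20 to 2.16 times higher (median 1.54 in replicate 1 and 1.56 in replicate 2), close to the median of all coding genes at 1.56 and 1.54. There Casp9 stood above Bbc3, and the ranges of that pair and of Bcl2 and Bcl2l11 overlapped, so the order inside these pairs was not settled by the data. Between the other neighbours with overlapping intervals the order is less sure than the ranges alone show. The median level of the 9 genes was 9.55 TPM in replicate 1 and 10.46 TPM in replicate 2, while that of the 12921 coding genes at a TPM of 1 in both was 15.97 and 15.9 TPM.

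The effectors were both expressed, with Bax above Bak1. Bax, whose protein moves from the cytosol into the mitochondrial outer membrane, lies on the minus strand of chromosome 7 at 45461697 to 45466898 (coordinates here and below are mm10). It measured 35.64 TPM in replicate 1 and 34.14 TPM in replicate 2, from 550.73 and 565.52 expected counts. Bak1, whose protein resides in that membrane, lies on the minus strand of chromosome 17 at 27019810 to 27029009. It measured 11.34 TPM in replicate 1 and 11.54 TPM in replicate 2, from 403 and 421 counts. The libraries thus gave nearly the same level for each effector, and the log2 ratio of Bax over Bak1 was 1.60 ± 0.06, a 3.03-fold higher level of Bax. The second table gave a log2 ratio of 1.97 ± 0.04. Summed, Bax and Bak1 came to 46.3 ± 0.919 TPM.

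Most Bax signal was assigned to Bax-201, which encodes the full-length protein in 576 coding bases. It took 55.65% of the gene's TPM in replicate 1 and 60.39% in replicate 2, and the second table gave 53.7% and 56.3%. Bax-203, whose annotated model is cut short, took 28.19% and 29.44%, and Bax-205 took 12.49% and 4.98%. The form Bax-206, which keeps an intron, took 3.67% and 5.18%, and 8.94% and 10.02% in the second table.

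Bak1 turned on a short exon. In mouse neurons, a 20-base exon of Bak1 is known to be included during maturation, which shifts the reading frame and sends the transcript to nonsense-mediated decay. In the annotation, Bak1-201 carries a 20-base exon at chromosome 17, 27021663 to 27021682, is annotated as a target of nonsense-mediated decay, and has 453 coding bases. Bak1-202 lacks the exon and keeps the full reading frame of 627 coding bases. The joined exons of both are shown, on the coding strand from the reference over chr17:27021256-27022478, because they differ by the exon that separates the forms; capitals in Bak1-201 mark the exon and the stop codon that ends its reading frame 89 bases after it.
Bak1-201: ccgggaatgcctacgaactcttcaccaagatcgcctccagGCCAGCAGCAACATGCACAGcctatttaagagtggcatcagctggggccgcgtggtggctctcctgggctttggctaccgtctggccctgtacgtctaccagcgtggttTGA
Bak1-202: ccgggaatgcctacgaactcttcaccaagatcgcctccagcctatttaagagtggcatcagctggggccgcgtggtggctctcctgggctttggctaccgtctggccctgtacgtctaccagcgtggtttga
The same final 3 bases lie out of frame in Bak1-202, whose reading frame runs on past them.

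In the first transcript table the exon-containing form Bak1-201 took 74.17% of Bak1 TPM in replicate 1 and 63.58% in replicate 2 (68.9 ± 7.49%). In the second table it took 41.4% in replicate 1 and 49.3% in replicate 2 (45.3 ± 5.58%). Both quantifications thus placed a large part of Bak1 RNA in the form with the exon, and the 2 libraries did not overlap between the tables. The exon form measured 8.41 and 7.34 TPM in the first table and 7.0 and 7.69 TPM in the second, in replicates 1 and 2, on TPM scales that differ between the tables as given above.

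The tables parted on the forms without the exon. Bak1-202 was listed at 0% in both libraries of the first table, where the quantifier's interval reached 0.656 TPM in replicate 1 and 1.06 TPM in replicate 2. In the second table Bak1-202 took 54.3% and 50.7%. Bak1-204, which also lacks the exon but is annotated as a target of nonsense-mediated decay, took 25.83% and 29.68% in the first table and was listed at 0 in both libraries of the second. Bak1-203, annotated as protein-coding, was listed at 0 in replicate 1 and took 6.74% in replicate 2 of the first table, and in the second it took 4.37% in replicate 1 and was listed at 0 in replicate 2.

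Bak1-204 differs from Bak1-201 also at the start of the third exon, which is shorter by 5 bases. The junctions are shown from the reference over chr17:27022833-27025832, with the 5 bases that only the longer form keeps in capitals, because these bases move the reading frame of Bak1-204, which has 237 coding bases.
Bak1-201 exon 3: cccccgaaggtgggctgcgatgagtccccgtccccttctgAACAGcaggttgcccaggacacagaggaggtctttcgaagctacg
Bak1-204 exon 3: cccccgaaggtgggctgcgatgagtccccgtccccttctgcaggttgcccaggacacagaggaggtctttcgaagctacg
The share of Bak1 in forms annotated as protein-coding therefore depended on the table. It was 3.37 ± 4.77% in the first table and 54.7 ± 5.58% in the second. Bak1-202 starts 431 bases upstream of Bak1-201 in the annotation, and Bak1-204 starts 9 bases upstream. The antisense gene Ggnbp1 overlaps Bak1, and 17.1% of the 50-base stretches of Bak1 transcripts also occur, on the opposite strand, in Ggnbp1 transcripts. The share was 10.8% for Bak1-201 and 18.2% for Bak1-202, and 219 of the stretches that begin in the 431 extra bases of Bak1-202 were shared. The 2 gene identifiers of Ggnbp1 measured 0.74 and 2.73 TPM in replicate 1 and 1.15 and 1.84 TPM in replicate 2. Whether reads were counted by strand is not given in the sources used here, and the part of this overlap in the result was not tested.

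**Figure D2:**
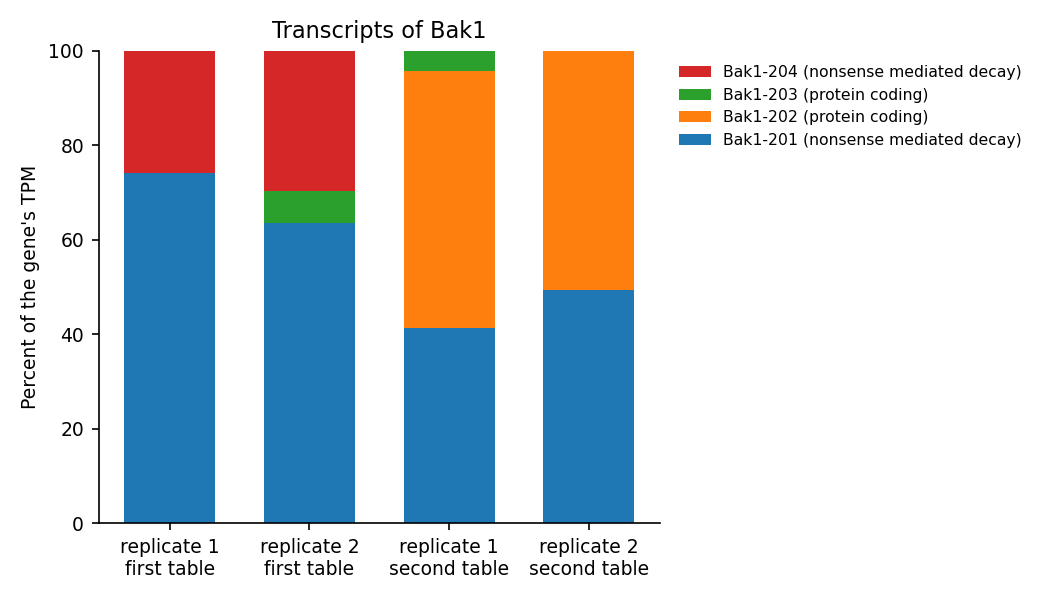
Share of Bak1 TPM (vertical axis, percent) in each annotated transcript, stacked, for replicates 1 and 2 in the first and the second transcript table. The form with the 20-base exon, Bak1-201, takes 74.17% and 63.58% in the first table and 41.4% and 49.3% in the second, and the rest goes mainly to Bak1-204 in the first and to Bak1-202 in the second.

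Among the anti-apoptotic genes Bcl2l1 was highest, Mcl1 intermediate and Bcl2 lowest, in both libraries and both quantifications. The 3 genes summed to 92.1 ± 4.05 TPM, of which Bcl2l1 made up 64.6% in replicate 1 and 60.9% in replicate 2, Mcl1 29.6% and 33.2%, and Bcl2 5.75% and 5.92%. The second table gave nearly the same shares, with 65.7% and 63.5% for Bcl2l1. The log2 ratio of Bcl2l1 over Bcl2 was 3.40 ± 0.09, a 10.6-fold higher level of Bcl2l1, and that of Mcl1 over Bcl2 was 2.40 ± 0.09, or 5.29-fold. The log2 ratio of Bcl2l1 over Mcl1 was 1.00 ± 0.18. Bcl2l1 also stood above both effectors, with a log2 ratio of 0.73 ± 0.05 over Bax and 2.33 ± 0.02 over Bak1. The second table gave 0.52 ± 0.15 over Bax and 2.49 ± 0.11 over Bak1.

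Bcl2l1 encodes Bcl-xL, the anti-apoptotic protein known to keep maturing neurons alive. It lies on the minus strand of chromosome 2 at 152780668 to 152831728 and measured 57.66 TPM in replicate 1 and 57.81 TPM in replicate 2, from 2354 and 2449 counts. Of the detected coding genes, 85.4% had a lower mean TPM. Its TPM in the gene table had a coefficient of variation of 0.184% between the libraries, and the second table gave 90.2 TPM in replicate 1 and 92.9 TPM in replicate 2.

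Alternative splicing of Bcl2l1 can join the last exon to the full second exon, giving Bcl-xL, or to an upstream site within it, giving the pro-apoptotic short form Bcl-xS. Bcl2l1-201 and Bcl2l1-202 carry the same 699 coding bases of the Bcl-xL form and differ in their first exon. Together they took 78.7% of the gene's TPM in replicate 1 and 76.4% in replicate 2, and 70.9% and 66.6% in the second table. None of the 9 annotated transcripts that is not cut short has a shorter second exon, so a share of Bcl-xS could not be read from these tables. Bcl2l1-205 and Bcl2l1-206 read from the second exon into the intron and end after 63 intronic coding bases; they took 5.78 ± 0.0849% in the first table and 5.51 ± 0.149% in the second. The ends of the second exon in the spliced form (chr2:152782223-152829466, capitals mark the last exon) and in the read-through form (chr2:152829361-152829466, capitals mark intronic bases up to the stop codon) are shown because this junction separates the 2 forms.
Bcl2l1-201: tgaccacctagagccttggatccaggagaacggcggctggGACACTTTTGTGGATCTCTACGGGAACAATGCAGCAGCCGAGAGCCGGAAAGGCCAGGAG
Bcl2l1-205: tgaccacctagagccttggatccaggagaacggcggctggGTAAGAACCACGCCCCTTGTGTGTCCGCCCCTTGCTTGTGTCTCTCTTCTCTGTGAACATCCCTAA
The read-through form was the minor one in every library and table. Other models that are cut short (Bcl2l1-203, Bcl2l1-204, Bcl2l1-207 and Bcl2l1-208) took 15.45% in replicate 1 and 17.88% in replicate 2 of the first table, and 23.5% and 27.98% of the second. Bcl2l1-203 alone took 12.04% and 12.31%, and Bcl2l1-209 was listed at 0 in both libraries of the first table.

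Most Bcl2l1 signal was split between models with a distal and models with a middle first exon. Bcl2l1-201, which begins at the distal one, took 58.68% in replicate 1 and 68.5% in replicate 2, and 48.1% and 51.2% in the second table. Bcl2l1-202, which begins at the middle one, took 20.02% and 7.9%, and 22.8% and 15.4% in the second table. Over all models, the distal first exon took 61.6% in replicate 1 and 72.2% in replicate 2 of the first table, against 38.4% and 26.0% for the middle one. In the second table the values were 48.1% and 51.2% for the distal exon and 51.9% and 46.4% for the middle one. Which of these exons took more was thus not settled between tables. Models were counted as middle by the shared downstream end of that exon, not by their start. They included Bcl2l1-203, which begins further upstream, at 152831112, and took 23.5% and 18.7% in the second table. RefSeq gives a start at 152831728 for the distal exon and one at 152830717, 1011 bases downstream, which lies 51 bases upstream of the start of Bcl2l1-202. The 250 bases before each start are shown from RefSeq (GRCm38.p6, minus strand, distal chr2:152831729-152831978 and middle chr2:152830718-152830967), because models with each first exon carried signal. The first exon of Bcl2l1-203 spans the middle window.
Bcl2l1 distal: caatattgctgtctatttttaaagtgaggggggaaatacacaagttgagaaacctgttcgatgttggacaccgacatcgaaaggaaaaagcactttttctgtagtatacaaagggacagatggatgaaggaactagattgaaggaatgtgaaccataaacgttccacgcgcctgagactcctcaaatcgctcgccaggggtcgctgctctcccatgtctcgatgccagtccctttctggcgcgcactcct
Bcl2l1 middle: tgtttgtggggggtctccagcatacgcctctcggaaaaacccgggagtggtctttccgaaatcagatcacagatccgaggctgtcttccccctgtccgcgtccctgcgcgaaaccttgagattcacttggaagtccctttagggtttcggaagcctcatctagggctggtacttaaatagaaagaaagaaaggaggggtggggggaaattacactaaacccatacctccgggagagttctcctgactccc
The distal window had a GC content of 47.6% with 12 CG dinucleotides, and the middle window 53.2% with 11. Of the 3 motifs searched on both strands, the GC-box letters GGGCGG, the TATA-box letters TATAAA and the Ets-site letters CCGGAAG, neither window holds any. Another RefSeq window of Bcl2l1, before a start at 152828489, holds none of them either and no CG dinucleotide.

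**Figure D3:**
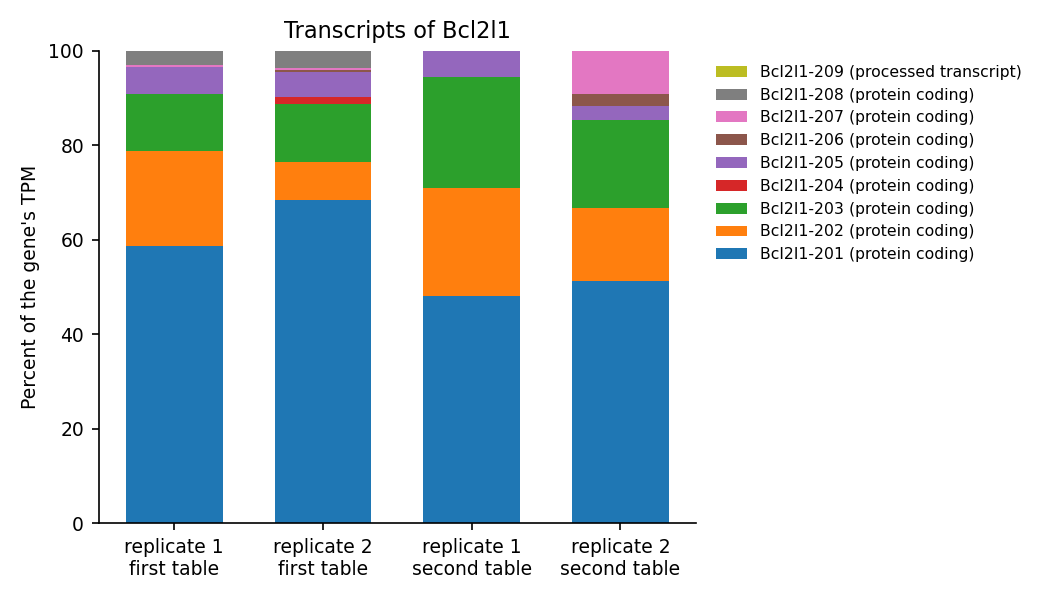
Share of Bcl2l1 TPM (vertical axis, percent) in each of its 9 annotated transcripts, stacked, for replicates 1 and 2 in the first and the second transcript table. Bcl2l1-201 is the largest part of every bar, from 48.1% to 68.5%, and with Bcl2l1-202 makes up 66.6% to 78.7%.

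Mcl1 encodes a short-lived anti-apoptotic protein and lies on the plus strand of chromosome 3 at 95658788 to 95663176. It measured 26.4 TPM in replicate 1 and 31.49 TPM in replicate 2, from 1664 and 2120 counts, with a coefficient of variation of 12.4% in the gene table. The second table gave 39.1 TPM in replicate 1 and 45.04 TPM in replicate 2. Mcl1-201 took 100% of it in both libraries of the first table, and 96.7% and 100% in the second.

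Bcl2, the founding anti-apoptotic gene of the family, lies on the minus strand of chromosome 1 at 106538178 to 106714274. It measured 5.13 TPM in replicate 1 and 5.62 TPM in replicate 2, from 610 and 724 counts, so replicate 2 was slightly higher. Bcl2-201, with 708 coding bases, took 80.77% and 82.92%, and Bcl2-202, with 597 coding bases, took 19.23% and 17.08%. The second table gave shares within 5 percentage points of these. Bcl2 was 6.40-fold lower than Bax per length, with a log2 ratio of -2.68 ± 0.14, although its counts were higher, since its transcripts are longer.

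The BH3-only genes Bbc3 and Bcl2l11 were lower than both effectors in each library and each quantification. For Bbc3 and Bak1 the quantifier's intervals overlapped in both libraries. Bbc3 encodes Puma, a target of p53, and lies on the plus strand of chromosome 7 at 16308393 to 16318205. It measured 9.55 TPM in replicate 1 and 10.46 TPM in replicate 2, from 199 and 235 counts, the fewest of the 9 genes. Bbc3-201 took 48.19% and 48.43% in the first table but 54.7% and 76.8% in the second, and Bbc3-202 took 33.95% and 31.99% in the first and 32.1% and 9.68% in the second. Bbc3-203, which keeps an intron, took 17.86% and 19.58% in the first table.

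Bcl2l11 encodes Bim, which is induced in neurons deprived of trophic support, and lies on the plus strand of chromosome 2 at 128126038 to 128162547. It measured 4.87 TPM in replicate 1 and 4.22 TPM in replicate 2, although its counts were 260 and 312, and the second table gave 7.20 TPM in replicate 1 and 9.12 TPM in replicate 2. The direction between libraries thus differed between the gene table's TPM on the one side and the counts and the second table on the other. The length that the quantifier gave the gene was 2911 bases in replicate 1 and 3745 bases in replicate 2. Its main form with 588 coding bases, Bcl2l11-205, took 44.66% and 67.03% of TPM in the first table and 41.8% and 41.1% in the second. The shorter Bcl2l11-204 took 20.46% and 18.9%, from 10.84 and 9.27 counts. Bcl2l11-202 took 7.94% and 5.14%, and the noncoding Bcl2l11-208 took 8.07% and 5.85%. The noncoding Bcl2l11-207 took 11.11% in replicate 1 and was listed at 0 in replicate 2, and it took 25.6% and 27.8% in the second table from 2.76 and 4.11 counts, so its share rests on very few reads. Bcl2l11 was below Bbc3 per length, with a log2 ratio of -1.12 ± 0.23 in the gene table and -0.70 ± 0.35 in the second table.

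The apoptosome genes stood close to each other. Casp9, the initiator caspase, lies on the plus strand of chromosome 4 at 141793612 to 141815976 and measured 8.14 TPM in replicate 1 and 8.81 TPM in replicate 2, from 462 and 485 counts. Apaf1, its scaffold, lies on the minus strand of chromosome 10 at 90989311 to 91082770 and measured 6.86 TPM in replicate 1 and 7.33 TPM in replicate 2, from 659 and 595 counts. The log2 ratio of Apaf1 over Casp9 was -0.25 ± 0.01, a 1.19-fold lower level of Apaf1, and it was -0.20 ± 0.08 in the second table. These SDs cover only the spread between the libraries. The quantifier's intervals of the genes overlapped in both libraries (in replicate 1, 6.01 to 8.66 TPM for Apaf1 and 7.58 to 10.71 TPM for Casp9).

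The transcripts of these genes were less settled than their levels. Casp9-201 took 63.84% in replicate 1 and 60.07% in replicate 2, and 60.7% and 66.3% in the second table. Casp9-202 took 25.09% and 8.33%, and 20.4% and 19.6% in the second table, while Casp9-206 was listed at 0 in replicate 1 and took 23.7% in replicate 2 of the first table and 9.44% and 5.85% in the second. The noncoding Casp9-204 took 11.06% and 7.91%. Apaf1-202 was the main Apaf1 form at 57.99% and 44.87%, and 41.8% and 33.5% in the second table. Apaf1-201, with 3747 coding bases, took 17.73% and 12.8%, and 20.9% and 18.6% in the second table. Short forms of few reads weighed on these shares. Apaf1-204 took 11.67% and 28.33% of TPM from 6.27 and 17.35 counts, Apaf1-205 took 5.04% and 10.79% from 9.83 and 24.0 counts, and Apaf1-203 took 31.1% and 31.4% in the second table from 13.9 and 16.2 counts.

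The share of the 9 genes that differed between the libraries beyond counting error was near that of other genes. On counts scaled with edgeR, 0 of 9 differed by at least 0.5 on the log2 scale, against 13.6% of the 18965 genes tested. Of the 8006 genes with counts in the members' range, 268 did, so a count of 0 in 9 is near that share. At a threshold of 0.25 it was 1 of 9, against 31.7% of all genes and 1143 of those 8006. This was Mcl1, at 0.2503, and which gene passed changed with the scaling. Their median absolute difference was 0.14, the same as the 0.14 over all genes and above the 0.09 of genes with counts in the same range. The 95% exact interval of the count ratio, which covers counting error only, excluded equality for 2 of 9, Mcl1 and Apaf1, against 28.5% of all genes and 30.6% of genes in the members' range of counts. A share of 2 in 9 is near that background.

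Mcl1 was higher in replicate 2 by 0.25 on the log2 scale (0.16 to 0.34), and its TPM moved the same way. Apaf1 was lower in replicate 2, at -0.25 (-0.41 to -0.08), but its TPM was higher there, since the quantifier gave it a length of 4101 bases in replicate 2 and 5156 bases in replicate 1. The intervals of the other 7 genes included equality, from -0.06 for Bax to 0.16 for Bcl2l11. Markers of striatal projection neurons and of myelinating oligodendrocytes were lower in replicate 2, as given above, and their part in these differences was not tested.

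**Figure D4:**
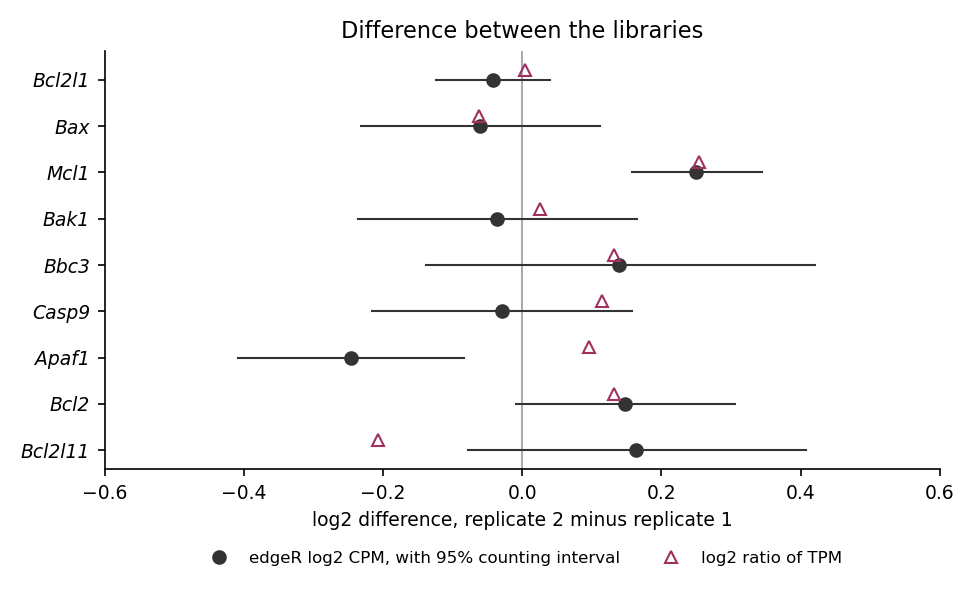
Difference between the libraries for the 9 genes, replicate 2 minus replicate 1, on a log2 scale (horizontal axis). Filled circles are edgeR log2 CPM (scaled counts) with the 95% counting interval as a line, and open triangles the log2 ratio of TPM. The interval lies above 0 for Mcl1 and below 0 for Apaf1, while the triangles of Bcl2l1, Bak1, Casp9, Apaf1 and Bcl2l11 lie on the other side of 0 from their circles.

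RefSeq gives 14 promoter windows for the 9 genes (9 of 9 matched by symbol). Over the 250 bases before the start, their median GC content was 69%, against 52.4% over all 32851 windows, and they held a median of 24.5 CG dinucleotides against 6. The GC-box letters GGGCGG, on either strand, occurred in 10 of 14 windows, against 32.7% of all windows. The letters TATAAA occurred in 0 of 14, against 12.4%, and CCGGAAG in 2 of 14, those of Mcl1 and Bcl2l11, against 6.91%. The windows of Bak1 and Bcl2l1 were the 4 without GGGCGG. All 9 genes were detected here, whereas the 32851 windows were not limited to detected genes, so the sets are unlike. The 14 windows are not independent, since Bbc3, Bcl2l11 and Bcl2l1 each have multiple ones. Those of Bbc3 before starts at 16310261 and 16310431 overlap. A match describes letters in the window and does not show a binding site.

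Around the 9 genes, the wider pathway was mostly detected, with 34 of 42 other genes at a TPM of 1 in both libraries of the gene table. Of 38 with enough counts, 2 differed by at least 0.5 between libraries, against 13.6% of all genes. Among the 8006 genes with counts in the range of the 9 genes, 268 did, although some of the 38 lie outside that range. The 2 genes were Tnfrsf10b and Bcl2a1b, and the interval of Bcl2a1b (-0.96 to 2.38, from 5.82 counts in replicate 1 and 9.65 in replicate 2) included equality. The counting interval excluded equality for 11 of 38, against 28.5% of all genes. Among the effectors, Bok (9.96 ± 0.856 TPM), another relative of Bax and Bak, was the lowest of 3. In the anti-apoptotic family 4 of 8 genes reached a TPM of 1: Bcl2l1, Bcl2l2 (46.1 ± 1.80 TPM, encoding Bcl-w), Mcl1 and Bcl2. Bcl2a1a was listed at 0 in both libraries, and the Bcl2a1 copies may share reads. With Bcl2l2, the anti-apoptotic sum was 134 TPM in replicate 1 and 142 TPM in replicate 2.

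Of the BH3-only genes 7 of 8 reached a TPM of 1, led by Bad (16.05 ± 0.0283 TPM) and Hrk (15.99 ± 3.04 TPM), a neuronal BH3-only gene, with Bik lowest at 0.155 ± 0.0495 TPM. All 7 apoptosome and caspase genes did, led in the gene table by Cycs (cytochrome c, 21.37 TPM in replicate 1 and 22.56 TPM in replicate 2). The second table gave Cycs 277 TPM in replicate 1 and 263 TPM in replicate 2, so its level was not settled. All 7 inhibitors of apoptosis and their antagonists did, led by Birc6 (67.2 ± 2.84 TPM) and Sept4 (43.0 ± 0.552 TPM), with Birc3 lowest (1.79 ± 0.990 TPM).

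All 5 other mitochondrial factors reached a TPM of 1, led by the outer membrane channels Vdac1 (285 ± 5.81 TPM) and Vdac2 (101.5 ± 4.50 TPM), with Endog lowest (10.8 ± 0.509 TPM). The 3 caspase substrates and nuclease genes, Parp1 (47.4 ± 3.01 TPM), Dffa (26.6 ± 1.99 TPM) and Dffb (5.12 ± 0.870 TPM), did as well. So did 4 of 4 genes of the p53 axis, with the p53 inhibitors Mdm4 (37.8 ± 2.50 TPM) and Mdm2 (23.8 ± 1.60 TPM) above Trp53 (9.52 ± 0.156 TPM). The death receptor genes, which start apoptosis at the cell surface, reached it in 3 of 6 in the gene table, with the inhibitor Cflar highest (12.5 ± 2.19 TPM), then the receptor Tnfrsf1a (5.64 ± 0.0707 TPM), and the receptor Tnfrsf10b lowest (0.335 ± 0.205 TPM). In the second table all 6 reached a TPM of 1 in both libraries. There Tnfrsf10b, at 2.49 TPM in replicate 1 and 3.80 TPM in replicate 2, stood above Fas (1.21 and 1.64 TPM). The count and the lowest gene of this list were thus not settled. Of 7 splicing regulators reported for Bak1 or Bcl2l1, all reached a TPM of 1, led by Srsf1 (79.3 ± 2.06 TPM) and the neuronal repressor Ptbp2 (60.3 ± 2.67 TPM), with Rbm11 lowest (2.34 ± 0.141 TPM).

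**Figure D5:**
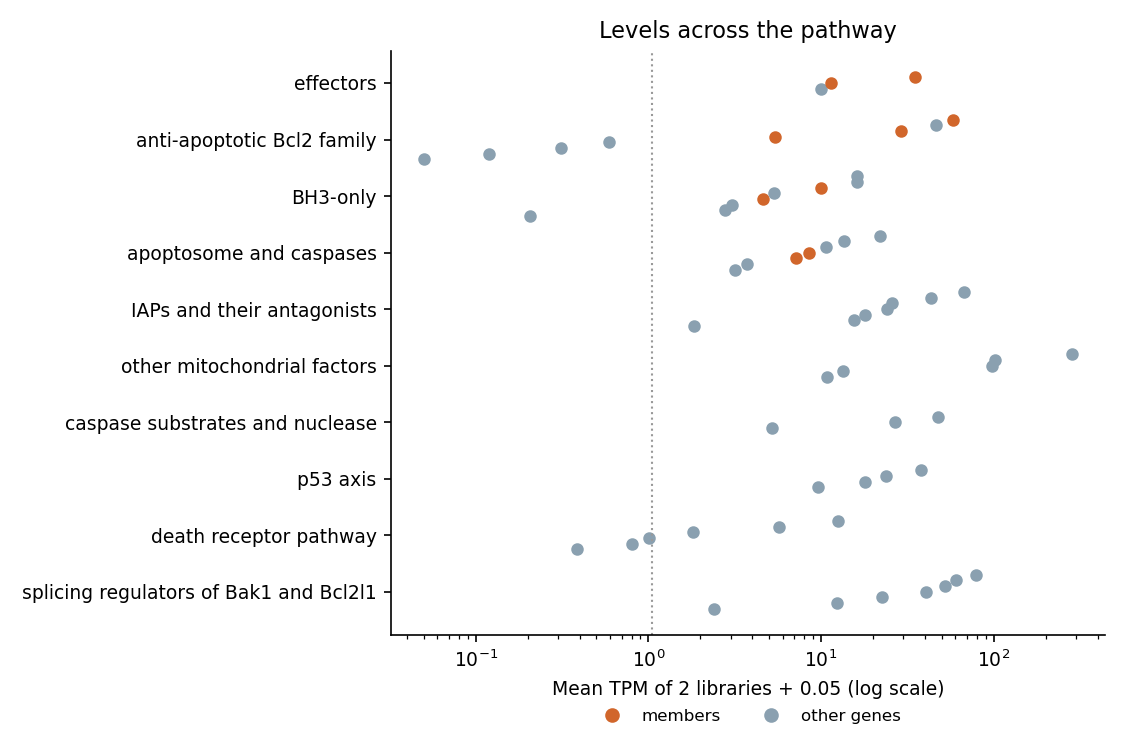
Mean level of each gene of 10 pathway lists on a log axis (mean TPM of the 2 libraries in the gene table plus 0.05), with the 9 genes described here in orange and the others in grey. The dotted line marks a TPM of 1, and the genes left of it are in the anti-apoptotic, BH3-only and death receptor lists.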

How the data were processed

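Total RNA of 2 libraries (replicates 1 and 2 of 1 group) was measured. Gene and first transcript tables were made from alignments to the transcriptome (mm10, GENCODE M21), and a second transcript table directly from the reads, per the file headers and the deposited descriptions. The column names are those RSEM and kallisto write; the aligner, quantifiers, versions and strand setting were not given in the sources used here. The deposited expected counts are estimated reads, not normalized. The deposited TPM values are scaled over all genes and spike-ins of a file. The deposited percent values give each transcript's part of its gene, and the deposited signal columns hold effective lengths and the quantifier's interval of the TPM, whose level is not stated. The first table takes 99 bases off a transcript's length, and the second 352 bases in replicate 1 and 339 in replicate 2.

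Spike-ins, 0.404% and 0.387% of counts, stayed out of library sizes. Expected counts were rounded, and log2 CPM differences were taken in edgeR 4.0.16 (R 4.3.3; TMM factors, prior count 2) over genes that reached 10 counts in either library. Size factors from DESeq2 1.42.0, spike-in scaling, other thresholds, the second table, TPM over nuclear coding genes, other pseudocounts than 0.1 and leaving out each library were tried as alternatives. Other steps used Python 3.11.15. The log2 differences between libraries were tested on simulated counts, where 8.98% of unchanged genes passed 0.5. Gene names, exons and transcript sequences came from GENCODE M21, promoters from RefSeq. Sequences are of the reference genome, and the CAST alleles of the hybrid may differ. Named besides the 9 genes are the 2 highest and the lowest of each pathway list by mean TPM, and transcripts with at least 5% of a gene's TPM in both libraries of either table, with any form of Bak1 and Bcl2l1; Bax-205, Bcl2a1a, Bcl2a1b and Ggnbp1 were named after their values were seen. Some genes of the apoptosome and caspase list are not reported here. The members, pairs and lists were chosen with earlier results of these data known. Intervals cover counting error only.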

Additional observations from a re-analysis of the deposited data

How the results depend on the processing

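All 9 genes kept a TPM of 1 in both libraries in the second table, and all 9 also reached a TPM of 2 in the gene table. Scaling over nuclear coding genes, a threshold of 0.5 and leaving out either library also gave 9, but these could not lower the count. Their median level was 10.01 TPM in the gene table, 14.1 TPM in the second table, 21.4 TPM over nuclear coding genes and 9.55 to 10.46 TPM with a library left out. All 9 levels moved in the second table by more than the spread between libraries. Values there were higher for coding genes in general (median ratio 1.56 in replicate 1 and 1.54 in replicate 2), so such a move was given by the scale. The count of genes past a log2 difference of 0.5 was 0, against 268 of 8006 genes with counts in the members' range. At a threshold of 0.25 it was 1, against 31.7% of all genes and 1143 of those 8006. That gene, Mcl1, lay at 0.2503, and the call did not hold with library size only (Mcl1 0.22, Apaf1 -0.27) or with at least 100 counts (Mcl1 0.24, Apaf1 -0.25, past the threshold at -0.2528); in the second table Mcl1 (0.25), Bcl2l11 (0.28) and Bbc3 (0.26) passed. Of 63 recomputed library differences, 63 stayed within the counting interval of the main value. Those outside the second table reused the same counts with another scaling, prior count or filter, and could hardly leave that interval. Casp9 changed sign under spike-in scaling and in the second table (range -0.06 to 0.01).

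The share of Bak1-201 was 68.9% in the first table and 45.3% in the second (63.58 to 74.17% with a library left out), and that of Bcl2l1-201 was 63.6% and 49.7% (58.68 to 68.5%). The protein-coding share of Bak1 was 3.37% and 54.7% (0 to 6.74%), and 7.57% from the quantifier's posterior means. The share of Bcl2l1 with the second exon joined to the last was 77.6% and 68.8% (76.4 to 78.7%). These last 2 shares and the posterior means were chosen after seeing the data. The causes were not tested. Of 40 recomputed pair ratios, 18 stayed within the SD of the main value, 19 moved further and 3 reversed. Of 10 pairs, 10 kept their direction in the second table. A direction was given only where both libraries shared it, so leaving out either library could not change it. On counts not divided by length 7 pairs kept it. There the log2 ratio was 0.25 for Bcl2 over Bax, 0.40 for Bcl2l11 over Bbc3 and 0.40 for Apaf1 over Casp9. No paired analysis was possible because the libraries form 1 group. A share limited to protein-coding transcripts could not be given for Bak1-201, which is not annotated as one. Depth limits the rarer transcripts, several of which rest on fewer than 20 counts.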
